A study of Arabidopsis thaliana with 12 samples.

Results

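Phosphoribulokinase (PRK), sedoheptulose bisphosphatase (SBPASE), the thioredoxin reductase NTRC and the plastid peroxiredoxin AT3G52960 were examined in an *Arabidopsis thaliana* mutant of photosystem I. The members were the probes that the platform annotation assigns to exactly 1 gene, that gene being PRK, SBPASE, NTRC or AT3G52960. There were 4 such probes of 3439 in the deposited table, 1 for each gene, and 692 probes had a single gene in all. The 12 samples of total RNA were 6 from *psae1* plants, which lack the photosystem I protein PSI-E1, and 6 from the wild type (WT), both of the Columbia 0 ecotype. The samples were numbered 1 to 6 in each genotype. The labels give no tissue, plant age, growth light or harvest time, and no other allele or treatment. Nor do they say whether different plants lie behind the samples of 1 genotype, so each p-value covers the spread of these samples alone, and that spread may be technical.

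In photosynthesis, photosystem I passes electrons to ferredoxin. Ferredoxin-NADP reductase uses them to make NADPH, and ferredoxin-thioredoxin reductase uses them to reduce the plastid thioredoxins. PRK makes ribulose bisphosphate, the substrate that Rubisco carboxylates, and SBPASE removes a phosphate from sedoheptulose bisphosphate in the regenerative phase of the Calvin cycle. Both are switched on in the light when thioredoxin reduces a disulfide in the enzyme. NTRC is a single protein with a reductase domain and a thioredoxin domain, so it takes its electrons from NADPH and also works in the dark. Peroxiredoxins reduce peroxides with electrons that thioredoxins, glutaredoxins or NTRC supply. These are controls on the proteins, whereas the arrays measured transcripts. In bulk RNA, fewer expressing cells and less RNA per cell cannot be told apart.

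The deposited values are linear intensities. Intensities summed to 3436 to 3564 in the *psae1* samples and to 3611 to 3678 in the WT samples, and 153 to 168 probes in *psae1* and 139 to 145 in WT were at 0. In each *psae1* sample 1 or 2 probes stood at a shared value counted as a ceiling, and in each WT sample 0 did. The median log2 intensity per sample was on average 0.25 lower in *psae1* than in WT. Each sample was therefore centred on its median, and a centred difference is relative to the median probe. Within each genotype, number 1 deviated like number 2, number 3 like number 4, and number 5 like number 6, with a mean r over the probes of 0.47 in *psae1* and 0.49 in WT. Results are for this reason given also with each such number pair averaged, which leaves 3 values per genotype. No probe of the 4 was at 0 in any sample, and their mean levels lay at percentiles 60.1 to 78.3 among the 3279 probes tested.

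As deposited, PRK and SBPASE had almost the same intensity in both genotypes, while NTRC and AT3G52960 averaged lower in *psae1*. Relative to the median probe, PRK rose by 0.27 ± 0.09 in log2 units in *psae1*, SBPASE was at 0.21 ± 0.08, NTRC at 0.09 ± 0.10 and AT3G52960 at −0.10 ± 0.10 (SE, n = 6 per genotype). PRK alone passed in limma (adjusted p = 0.036). The adjusted p was 0.083 for SBPASE, 0.54 for NTRC and 0.50 for AT3G52960. Thus 1 of the 4 members was called higher and 0 lower, where 11.9% of all tested probes were called higher and 10.9% lower. Before adjustment 2 of the 4, PRK and SBPASE, were under 0.05 in the same limma fit, as were 36.4% of all tested probes. With number pairs averaged, limma called 0 of the 4 in either direction, and PRK came closest (adjusted p = 0.28). In that fit 1.16% of all probes were called higher and 1.07% lower.

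**Figure D1:**
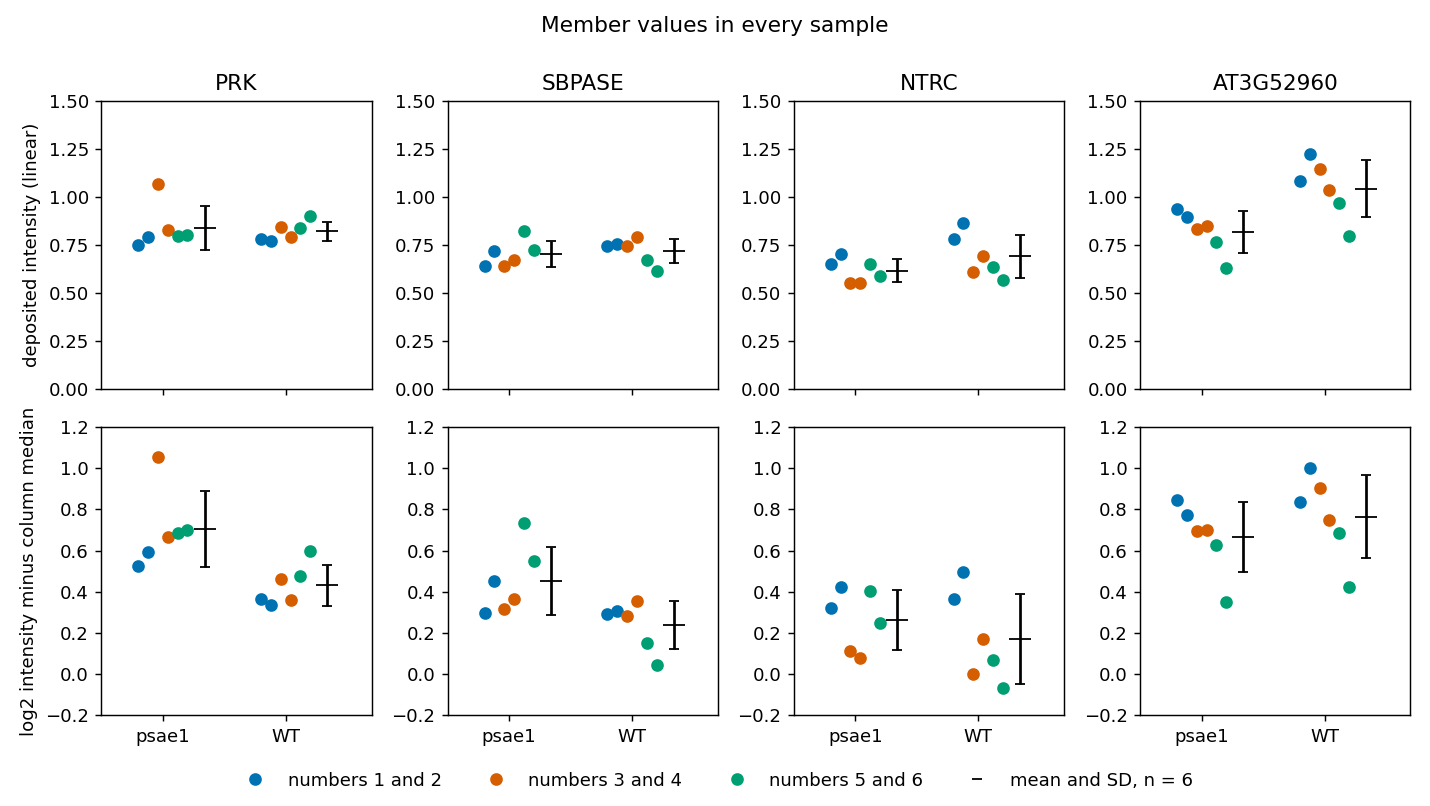
Deposited linear intensity (upper row) and log2 intensity minus the sample median (lower row) of the 4 genes in the 6 *psae1* and 6 WT samples. Points are samples, coloured by number pair, and bars are the mean and SD. PRK in *psae1* 3 stands above all other PRK values, and the genotypes overlap for each gene in both rows.

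For PRK, the deposited intensity had a lowest, median and highest value of 0.752, 0.801 and 1.07 in *psae1*, against 0.773, 0.817 and 0.902 in WT. The mean was 0.840 ± 0.114 in *psae1* and 0.822 ± 0.0497 in WT (SD, n = 6 each). The highest *psae1* value was that of *psae1* 3, and the other 5 *psae1* samples lay between 0.752 and 0.828. After centring, the lowest, median and highest log2 intensity were 0.52, 0.68 and 1.05 in *psae1*, against 0.34, 0.41 and 0.60 in WT. The 2 ranges overlapped, because WT 6, at 0.60, lay above *psae1* 1 and *psae1* 2. The centred PRK value was higher in *psae1* in 6 of 6 same-numbered comparisons, by 0.10 to 0.59. For this and later counts over the 6 numbers, the share of all probes with the same count was not taken. The numbers of a pair also deviate together, so such counts are not of independent comparisons.

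Size and call of the PRK difference both varied with the samples taken. It was 0.21 in numbers 1 and 2, 0.45 in numbers 3 and 4, and 0.15 in numbers 5 and 6. Without *psae1* 3 it was 0.20 and did not pass (limma adjusted p = 0.051). With the number as a replicate block in the fit of 12 samples PRK passed (limma adjusted p = 0.024), and with number pairs averaged and that block it did not (adjusted p = 0.21). Without centring PRK was at 0.02 (adjusted p = 0.83), with *psae1* above WT for 3 of the 6 numbers.

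SBPASE had a lowest, median and highest deposited intensity of 0.641, 0.696 and 0.822 in *psae1*, against 0.615, 0.745 and 0.790 in WT. Its mean was 0.704 ± 0.0683 in *psae1* and 0.720 ± 0.0644 in WT (SD, n = 6 each). The highest value was *psae1* 5 and the lowest WT 6, so the number pair 5 and 6 held both ends of the range. Centred, SBPASE ran from 0.30 through a median of 0.41 to 0.73 in *psae1*, against 0.04, 0.29 and 0.35 in WT.

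The centred SBPASE difference was close to 0 in most of the samples and large in 1 number pair. It was 0.58 in number 5 and 0.50 in number 6, but 0.00, 0.15, 0.04 and 0.01 in numbers 1 to 4. All 6 lay on the same side, whereas as deposited SBPASE was lower in *psae1* in 4 of 6, at −0.21, −0.07, −0.22 and −0.23 in numbers 1 to 4. With a smooth curve over the probe numbers taken from each sample (drift removed), SBPASE was at 0.24 and 0.14 in numbers 5 and 6, against 0.03, 0.16, 0.11 and 0.07 in numbers 1 to 4, so most of the gap between the number pairs was gone. Leaving out numbers 5 and 6 brought the centred difference to 0.05 (limma adjusted p = 0.61). *psae1* 5 and 6 stood high and WT 5 and 6 stood low, so both genotypes contributed to it. Over all 12 samples the 95% interval of the limma fit, before any adjustment, ran from 0.03 to 0.39. That fit takes the 12 samples as independent, as do the intervals given below for NTRC and AT3G52960. With number pairs averaged the SE of the SBPASE difference was 0.13, against 0.08, and it did not pass (limma adjusted p = 0.40).

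**Figure D2:**
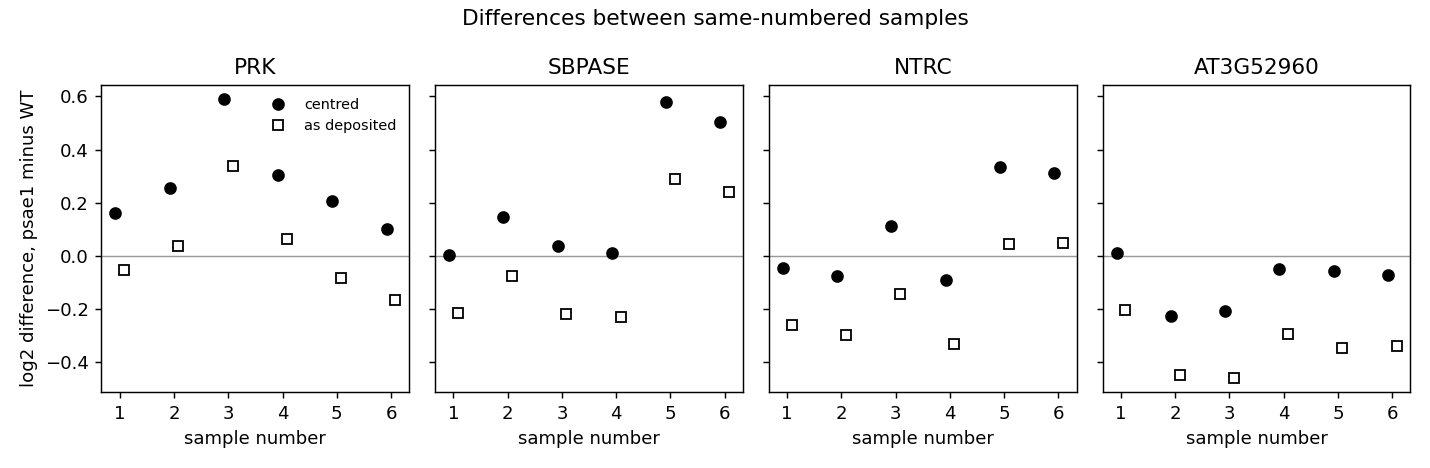
Log2 difference of *psae1* minus WT (vertical axis) for each sample number (horizontal axis) and each gene, with filled circles centred on the sample medians and open squares as deposited. PRK is highest in number 3, SBPASE and NTRC are highest in numbers 5 and 6, and AT3G52960 as deposited is below 0 in all 6 numbers.

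NTRC had a lowest, median and highest deposited intensity of 0.552, 0.621 and 0.705 in *psae1*, against 0.570, 0.665 and 0.865 in WT. Its mean was 0.618 ± 0.0618 in *psae1* and 0.693 ± 0.112 in WT (SD, n = 6 each). In both genotypes the NTRC values of numbers 1 and 2 were higher than those of numbers 3 and 4. Centred, NTRC ran from 0.08 through 0.28 to 0.42 in *psae1*, against −0.07, 0.12 and 0.50 in WT, so that the *psae1* values lay inside the range of the WT ones. The centred NTRC value was higher in *psae1* in 3 of 6 same-numbered comparisons. The difference was −0.06 in numbers 1 and 2, 0.01 in numbers 3 and 4, and 0.32 in numbers 5 and 6, the same number pair in which SBPASE was highest. With drift removed NTRC was at −0.05 in both number 5 and number 6, so the positive value there changed sign. No difference in NTRC was detectable with these arrays, and the 95% interval of the limma fit ran from −0.13 to 0.31.

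AT3G52960 had a lowest, median and highest deposited intensity of 0.633, 0.840 and 0.941 in *psae1*, against 0.799, 1.06 and 1.22 in WT. Its mean was 0.820 ± 0.109 in *psae1* and 1.04 ± 0.148 in WT (SD, n = 6 each), a ratio of 0.785. It was the member with the largest gap between the genotypes as deposited. *psae1* was lower in 6 of 6 same-numbered comparisons, by log2 values of −0.20 to −0.46. Number 6 was the lowest in each genotype. The genotypes overlapped through WT 6 alone, at 0.799, since WT 5, the next lowest, was at 0.972, above every *psae1* value.

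The sample medians differed in the same direction, by the −0.25 given above. Without centring AT3G52960 fell by 0.35 ± 0.11 on the log2 scale (SE, n = 6, limma adjusted p = 0.018), but 49.8% of all probes were called lower in that fit. Number pairs averaged without centring gave no call for it (limma adjusted p = 0.11). Centred, AT3G52960 ran from 0.35 through 0.70 to 0.85 in *psae1*, against 0.42, 0.79 and 0.999 in WT. The centred difference was −0.11 in numbers 1 and 2, −0.13 in numbers 3 and 4, and −0.06 in numbers 5 and 6. With drift removed it was larger in numbers 5 and 6, at −0.40 and −0.37, against 0.08, −0.18, −0.15 and −0.02 in numbers 1 to 4. The centred direction was the same in all 3 number pairs, although number 1 by itself was at 0.01. The 95% interval of the centred difference in the limma fit, −0.32 to 0.12, included 0.

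Over all tested probes the centred difference had a median near 0 (0.01), as centring on the sample medians brings about. The median for the 4 members was 0.15. The members' median was 0.06 with drift removed, 0.07 with array weights, 0.01 without numbers 5 and 6, and −0.09 without centring, where the median of all probes was −0.24. Brighter probes were higher in *psae1*, with a median of 0.23 in the brightest decile of level and −0.09 in the dimmest. PRK and AT3G52960 lay in decile 8, where the median was 0.03 and 13.4% of probes were called higher. SBPASE and NTRC lay in decile 7, where the median was 0.04 and 8.23% were called higher. Cyclic loess normalization, which removes shifts that depend on the level, left PRK at 0.24 (limma adjusted p = 0.060), SBPASE at 0.21 (adjusted p = 0.11), NTRC at 0.10 (adjusted p = 0.55) and AT3G52960 at −0.14 (adjusted p = 0.37). The order of the 4 differences was the same as with centring.

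**Figure D3:**
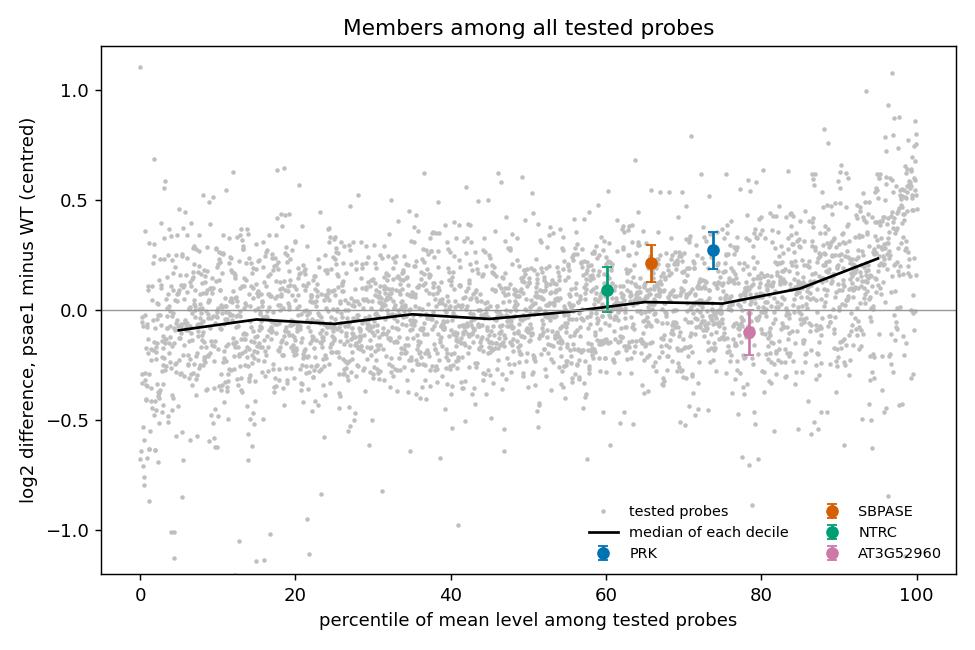
Centred log2 difference of *psae1* minus WT (vertical axis) against the percentile of mean level (horizontal axis) for the tested probes in grey, with the median of each decile as a line and the 4 genes as points with SE. PRK and SBPASE lie above the line, NTRC lies near it and AT3G52960 lies below it, and 21 probes outside the plotted range are not shown.

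How the members moved against each other was asked with ratios within a sample, which do not depend on how that sample was scaled by a single factor. Such a ratio shows unequal change and not which gene changed. The 6 pairs among the 4 genes were compared with exact two-sided permutation tests over samples, with Benjamini-Hochberg adjustment over the 6. None passed after adjustment, and 1 passed at an unadjusted exact p under 0.05. In exact sign-flip tests of same-numbered samples 1 ratio was under 0.05 before adjustment. The smallest p these allow is 0.03125, so at least 4 of the 6 ratios would have to reach it for any to pass after adjustment, and their count of 0 shows little.

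The largest differences were between a Calvin cycle enzyme and the peroxiredoxin. The log2 ratio of PRK over AT3G52960 was 0.04 ± 0.28 in *psae1* and −0.33 ± 0.29 in WT (SD, n = 6 each), a difference of 0.37 (exact permutation p = 0.052, adjusted p = 0.16). The ratio was above WT for all 6 numbers and in all 3 number pairs, at 0.32, 0.58 and 0.22. The ratio of SBPASE over AT3G52960 was −0.21 ± 0.30 in *psae1* and −0.53 ± 0.12 in WT, a difference of 0.31 (n = 6 each, exact permutation p = 0.026, adjusted p = 0.16). This ratio was above WT for 5 of the 6 numbers, at 0.18, 0.15 and 0.61 in the 3 number pairs. With number pairs averaged, the smallest p that 3 against 3 allows is 0.1. SBPASE over AT3G52960 reached it (exact permutation, adjusted p = 0.6), since its averages did not overlap. They barely missed doing so, with the lowest *psae1* average at −0.435 and the highest WT average at −0.455. With drift removed and all 12 samples, PRK over AT3G52960 differed by 0.52 and SBPASE over AT3G52960 by 0.30. Both then passed (exact permutation, adjusted p = 0.039 and 0.045), in tests that take the numbers of a pair as independent.

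The other ratios differed by less. NTRC over AT3G52960 was higher in *psae1* by 0.19, PRK over NTRC by 0.18 and SBPASE over NTRC by 0.12, with adjusted exact permutation p of 0.25, 0.40 and 0.33. The ratio of the 2 Calvin cycle enzymes, PRK over SBPASE, was 0.25 ± 0.26 in *psae1* and 0.19 ± 0.21 in WT (SD, n = 6 each), a difference of 0.06 (exact permutation p = 0.67). By number pair it was 0.13 in 1 and 2, 0.42 in 3 and 4, and −0.39 in 5 and 6. The negative value was not there with drift removed, when the 3 number pairs were at 0.17, 0.39 and 0.10 and the difference was 0.22 (exact permutation p = 0.039, adjusted p = 0.058).

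**Figure D4:**
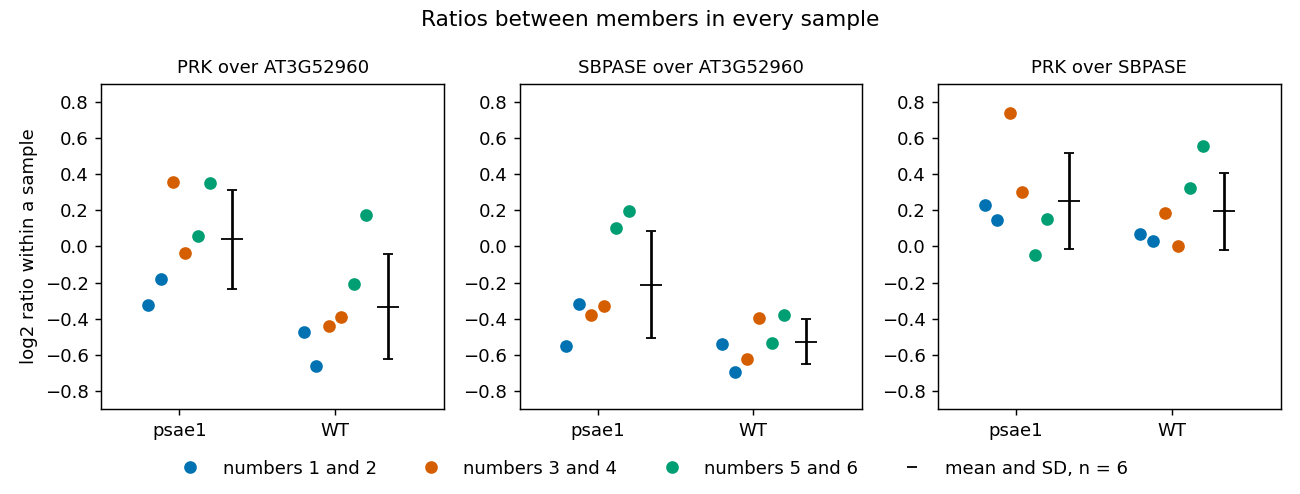
Log2 ratio within a sample (vertical axis) of PRK over AT3G52960, SBPASE over AT3G52960 and PRK over SBPASE in the 6 *psae1* and 6 WT samples. Points are samples coloured by number pair, and bars are the mean and SD; the 2 ratios over AT3G52960 average higher in *psae1* by 0.37 and 0.31, with overlapping samples.

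Few other genes of these pathways could be read from single-gene probes. Of 24 Calvin cycle genes only PRK and SBPASE were tested, and Rubisco activase had a place only on a probe shared by several genes. Of 15 genes of the plastid thioredoxin system 2 were tested, NTRC and AT2G04700, and neither passed. Of 16 genes of plastid peroxide and superoxide defence AT3G52960 alone was tested. None of 11 genes of the acceptor side of photosystem I, the PSI-E genes included, and none of 6 markers of root, seed and flower had a single-gene probe, so the genotype and the tissue could not be checked on them here.

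Of 5 further thioredoxin targets 1 was tested and rose, AT5G58330. It encodes the NADP-dependent malate dehydrogenase, a plastid enzyme that exports reducing power as malate and is also activated by thioredoxin. Its centred log2 intensity had a lowest, median and highest value of 1.57, 1.60 and 1.68 in *psae1*, against 1.23, 1.36 and 1.41 in WT. The centred values of the genotypes did not overlap, but the deposited ones did. The share of all probes without overlap was not counted. The centred difference was 0.27 ± 0.05 (SE, n = 6, limma adjusted p = 0.0036), beside the 11.9% of probes called higher. The probe is bright, at level percentile 91.0, and in that decile 46.6% of probes were called higher, with a median difference of 0.23. Its deposited intensity was nearly equal, at 1.57 ± 0.0420 in *psae1* and 1.55 ± 0.0879 in WT (SD, n = 6 each). As for PRK, the difference was 0.02 without centring, and no call was made with number pairs averaged (adjusted p = 0.21). It was 0.14 after cyclic loess normalization (adjusted p = 0.11). AT2G04700 was at 0.16 ± 0.06 (adjusted p = 0.075), with *psae1* above WT for all 6 numbers, and at −0.08 without centring. It passed without WT 1 (0.19), with drift removed (0.22) and with a pseudocount (0.15), at limma adjusted p of 0.046, 0.026 and 0.036. With number pairs averaged it did not pass (adjusted p = 0.46, and 0.24 with drift removed).

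The genes whose pattern was most like each member were taken from 646 other single-gene probes, by Pearson r over the 12 centred values. These samples share number pairs and scaling, so r is a description. PRK was most like AT3G54930 (r = 0.98), LrgB (r = 0.84) and the light-harvesting protein gene LHB1B2 (r = 0.81). For LHB1B2 the r of deviations from the genotype means was 0.57, against 0.96 for AT3G54930 and 0.81 for LrgB. LrgB is a near neighbour of PRK in the genome, with 1 locus between them. SBPASE was most like AT5G59250 (r = 0.97), the chlorophyll synthesis gene CHLM (r = 0.91) and AT3G15490 (r = 0.91). NTRC was most like ATAB2 (r = 0.89), AT2G37000 (r = 0.84) and AT4G24090 (r = 0.80). AT3G52960 was most like UGT74D1, AT2G41120 and AT2G26100 (r = 0.86, 0.83 and 0.82). The 2 genes most like AT3G52960, on probe 1966, were on probes 2020 and 2018, so they lay near it in the probe numbering. The third was on probe 2288. For PRK, SBPASE and NTRC, on probes 3151, 1517 and 1759, the most similar genes were on probes 364, 809 and 1924. No gene appeared under more than 1 member.

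The plot of settings shows how each difference moved with the processing. The sign was positive for PRK in all settings drawn. It was negative for AT3G52960 in all of them. SBPASE turned negative without centring. NTRC was negative without centring, with drift along the probe numbers removed, and without numbers 5 and 6. Removing that drift moved PRK to 0.35, the highest value it took.

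**Figure D5:**
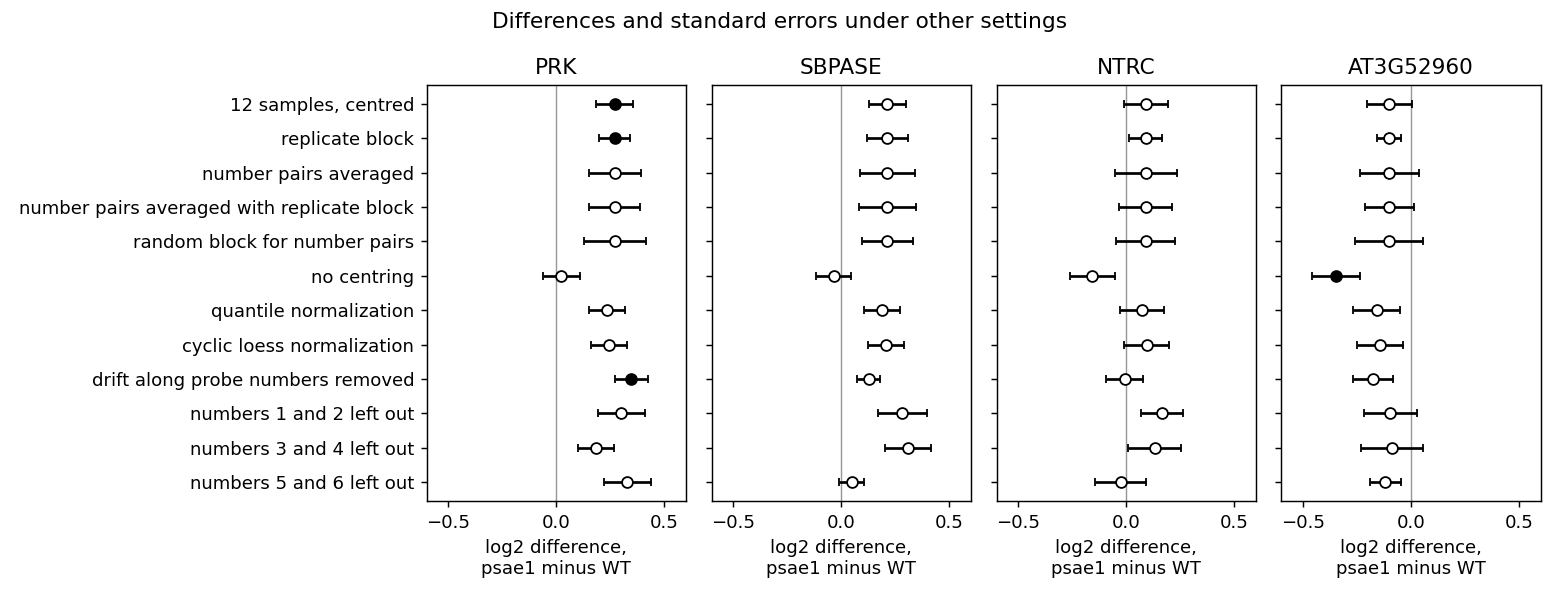
Log2 difference of *psae1* minus WT with SE (horizontal axis) for each gene under 12 settings (vertical axis). Filled points passed limma at an adjusted p under 0.05; PRK passed in 3 of the settings shown, AT3G52960 in 1, SBPASE and NTRC in 0.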

How the data were processed

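The deposited table holds 1 linear intensity per probe and sample. The authors' background correction, scaling, array layout and scanner are not given in the sources used here. Intensities were put on the log2 scale, leaving zeros out, and every column had its median subtracted. Testing needed 3 or more measured values in each genotype. The two-sided test was limma's (version 3.58.1 under R 4.3.3, functions lmFit and eBayes), fitted across all tested probes; p-values were adjusted after Benjamini and Hochberg over these, with 0.05 as the threshold. Plots come from matplotlib 3.10.9. The procedure was tested on simulated data. The number of arrays limits the precision, since no counts lie behind the values.

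Gene names come from the annotation of the platform, updated with RefSeq genes (TAIR10.1), which served for names and neighbours alone; 690 of 692 single-gene probes matched a locus. The members, the gene lists and the tests were chosen with earlier results of these data known. The 4 members, every tested list gene and the 3 genes most like each member were named.

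The pairing of equal numbers across the genotypes was checked on deviations from the genotype means over 3257 probes, which gave r of 0.23 to 0.42 over the 6 numbers. These were not compared with r between different numbers across the genotypes, so they do not show that single numbers pair. The labels state no such pairing either. Alternatives were a replicate block, averaged number pairs, a random block, no centring, quantile and cyclic loess normalization, removal of drift along the probe numbers (lowess, span 0.1), array weights, other filters, a pseudocount of 0.1, and omission of samples. Sequences of the genes and probes were not used here.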

Additional observations from a re-analysis of the deposited data

Results flagged for a closer look

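Each gene's 6 centred values per genotype were examined for a sample far from the rest, in 8 sets of values, of which 1 held such a sample. About 1 in 20 such sets is expected by chance for independent values, and values of a number pair are not independent. In *psae1* 3 the centred log2 intensity of PRK was 1.05, while *psae1* 1, 2, 4, 5 and 6 lay at 0.52 to 0.70. The gap to the nearest of them was 0.671 of the whole range. *psae1* 4, which deviates together with it, was at 0.66. Without *psae1* 3 the PRK difference was 0.20 (limma adjusted p = 0.051).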

How the results depend on the processing

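PRK was above 0 in all 33 alternatives and kept its call in 11. It lost the call with number pairs averaged (0.27), with that and a replicate block (0.27), with a random block (0.27), without centring (0.023), after quantile (0.23) and cyclic loess normalization (0.24), without numbers 1 and 2 (0.30), 3 and 4 (0.18) or 5 and 6 (0.33), and in averages after removal of drift (0.35). Leaving out each sample gave 0.20 to 0.31, and 8 of 12 omissions ended the call (adjusted p up to 0.073). So 0 members were called in these cases, against 1, except that 12 samples without centring called AT3G52960 lower. A lowess span of 0.02 for the drift gave 0.23 without a call. Averages after other scalings, and that span and one of 0.3, were chosen after seeing the data.

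Without centring SBPASE was at −0.034, NTRC at −0.16 and AT3G52960, called lower, at −0.35; AT2G04700 turned to −0.084. NTRC was also below 0 with drift removed (−0.0072, and −0.038 with a span of 0.02) and without numbers 5 and 6 (−0.024). The replicate block with 12 samples changed no call of a member. Among ratios 0 passed, with 2 after removal of drift (PRK and SBPASE over AT3G52960, at 0.52 and 0.30) and 0 to 1 when single samples were left out; the 1 was SBPASE over AT3G52960, at 0.38 without *psae1* 1. PRK over SBPASE ran from −0.040, without *psae1* 3, to 0.13 over such omissions, was −0.13 without numbers 3 and 4, 0.28 without 5 and 6 (exact permutation p = 0.057), and 0.22 with drift removed. Exact tests of 3 averages cannot pass 0.05. What causes these shifts was not tested.

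Over all probes, limma called 748 with 12 samples, 391 higher and 357 lower, and 73 with number pairs averaged, 38 higher and 35 lower. It called 229 with these averages and the replicate block, 393 when numbers 1 and 2 were omitted, 189 with the random block, and 1745 without centring, 111 higher and 1634 lower. Averages gave 56 after quantile normalization, 45 after cyclic loess, 153 with drift removed and 693 without centring.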
